A study of Mus musculus with 12 samples.

Results

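The keratins of the epidermis between hair follicles were followed in dorsal skin of mice in which *Cdc42* was intact or deleted in keratinocytes and to which zinc oxide nanoparticles (ZnO NPs) or vehicle had been applied. The 10 members, *Krt1*, *Krt2*, *Krt5*, *Krt10*, *Krt14*, *Krt15*, *Krt77*, *Krt78*, *Krt79* and *Krt80*, were chosen by name out of 52636 genes in the count table, and all 10 passed the filter on low counts. The 12 RNA-seq libraries come from C57BL/6 mice, 3 months old by their labels, with 3 libraries in each of 4 groups taken on day 14. The WT and KO groups received normal saline with hydroxypropyl methylcellulose (HPMC) on shaved back skin. The other groups, WT+ZnO NPs and KO+ZnO NPs, received ZnO NPs at 2 mg/cm² in that vehicle. KO mice carried *Cdc42* flox/flox with a Cre recombinase under the keratin K5 promoter. Deletion is thus limited to cells that use this promoter and to their descendants, also where these no longer use it. The WT mice carried floxed *Cdc42* without Cre. Whole skin was sequenced, with dermis, fat, muscle and follicles, and in such bulk samples fewer cells of a type and less RNA per cell cannot be told apart.

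Keratins are the intermediate filament proteins of epithelial cells, and a filament is built from pairs of an acidic type I and a basic type II keratin. Basal keratinocytes, which divide and rest on the basement membrane, make *Krt5* and *Krt14*. A cell that leaves the basal layer switches to *Krt1* and *Krt10*, the pair of the spinous layers, and cells higher up add further type II keratins before they become the cornified layer of the skin barrier. In the mouse genome the type I genes lie in a cluster on chromosome 11 and the type II genes in a cluster on chromosome 15. Some of the members are not limited to the interfollicular epidermis, since *Krt5* and *Krt14* are also made in the outer root sheath, *Krt15* in the follicle bulge and *Krt79* in the infundibulum at the mouth of the follicle.

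All members are protein-coding genes on the minus strand of GRCm38. The 3 type I genes are *Krt10* (ENSMUSG00000019761, chromosome 11, 99385254 to 99389364), *Krt15* (ENSMUSG00000054146, 100131758 to 100135928) and *Krt14* (ENSMUSG00000045545, 100203162 to 100207548). The 7 type II genes on chromosome 15 run from *Krt80* (ENSMUSG00000037185, 101347444 to 101370162) over *Krt5* (ENSMUSG00000061527, 101707070 to 101712898), *Krt2* (ENSMUSG00000064201, 101810689 to 101818169), *Krt1* (ENSMUSG00000046834, 101845426 to 101850794), *Krt77* (ENSMUSG00000067594, 101858731 to 101869705) and *Krt79* (ENSMUSG00000061397, 101929332 to 101940324) to *Krt78* (ENSMUSG00000050463, 101946001 to 101954287). Paralogous keratins can share reads, and 13.9% of the 50-base stretches of *Krt14* also occur in transcripts of *Krt16* or *Krt17*, while 12.2% of those of *Krt5* also occur in *Krt6a*, *Krt6b*, *Gm5478* or *Gm44323*. For *Krt80*, *Krt10* and *Krt15* the share was 2.74%, 2.37% and 0.64%, and for the other members it was 0. *Krt5*, *Krt10* and *Krt80* each overlap an annotated gene on the opposite strand (*Gm44323*, *Gm11940*, and *Gm35853* with *Mir1941*), and whether the counting used strand is not given in the sources used here.

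The upstream sequences of 4 members are shown because they stand for both directions seen below, *Krt10*, *Krt77* and *Krt78* for the keratins lower in the WT+ZnO NPs-labelled libraries than in WT and *Krt5* for those higher. Each is the 250 bases before the RefSeq start on GRCm38.p6, read 5′ to 3′ on the minus strand. The regions are chr11:99389365-99389614 (*Krt10*), chr15:101869706-101869955 (*Krt77*), chr15:101954288-101954537 (*Krt78*) and chr15:101712906-101713155 (*Krt5*). Capitals mark matches, on either strand, to the TATA box TATAAA or to the KLF motif CACCC.
Krt10: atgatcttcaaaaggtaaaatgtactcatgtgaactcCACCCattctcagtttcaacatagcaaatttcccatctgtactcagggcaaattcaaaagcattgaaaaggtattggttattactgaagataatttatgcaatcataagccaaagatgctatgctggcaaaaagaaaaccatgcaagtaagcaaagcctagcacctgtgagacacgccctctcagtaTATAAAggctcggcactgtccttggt
Krt77: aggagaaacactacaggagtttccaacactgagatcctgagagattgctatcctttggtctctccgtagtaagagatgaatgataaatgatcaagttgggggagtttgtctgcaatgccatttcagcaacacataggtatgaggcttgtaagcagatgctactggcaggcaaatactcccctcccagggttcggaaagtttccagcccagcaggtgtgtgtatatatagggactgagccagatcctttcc
Krt78: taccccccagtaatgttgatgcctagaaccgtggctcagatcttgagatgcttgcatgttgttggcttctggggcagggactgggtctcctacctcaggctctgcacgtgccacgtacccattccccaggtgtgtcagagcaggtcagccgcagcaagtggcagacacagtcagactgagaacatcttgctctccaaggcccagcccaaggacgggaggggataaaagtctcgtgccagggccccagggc
Krt5: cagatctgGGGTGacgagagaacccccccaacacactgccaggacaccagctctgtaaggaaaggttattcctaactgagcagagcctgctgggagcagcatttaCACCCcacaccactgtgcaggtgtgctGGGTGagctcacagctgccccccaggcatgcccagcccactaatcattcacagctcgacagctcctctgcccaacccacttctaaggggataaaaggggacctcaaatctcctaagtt
A RefSeq entry was found for 7 of the 10 members, but that of *Krt14* starts 1518 bases inside the GENCODE gene, so its 250 bases lie within the gene and not before the start given above. TATAAA stood in *Krt10* alone among these, 26 bases before the start, and stood in 12.4% of 32851 RefSeq promoters of the same length. CACCC occurred 3 times in *Krt5*, 6 times in *Krt79*, once in *Krt2*, *Krt10* and *Krt14*, and not in *Krt77* or *Krt78*, against 52% of all promoters with at least one match. The AP-1 motif TGANTCA (6.75% of all promoters) and the AP-2 motif GCCNNNGGC (13.7%) matched none of the 7. The motifs do not overlap each other in these sequences.

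The total count was 21076320 to 28867802 per library. Of the markers of epidermal keratinocytes outside the keratins (*Trp63*, *Dsp*, *Perp*, *Sfn*, *Dsg3*, *Col17a1*, *Dsg1a*, *Sbsn* and *Krtdap*), all 9 were present in every library, at 45.13 CPM or more. CPM stands for counts per 1000000 counts of a library, here after scaling by TMM factors. *Cdc42* was at 606.1, 628.4 and 616.3 CPM in WT and at 415.4, 464.0 and 439.8 CPM in KO. It was at 310.7, 350.1 and 317.4 CPM in the WT+ZnO NPs-labelled libraries, below every KO library although their label names intact *Cdc42*. In the KO+ZnO NPs-labelled libraries it was at 365.0, 453.0 and 313.5 CPM. The level in whole skin also depends on the mix of cells, so it does not decide whether a label is right. Y-linked transcripts were present in 5 libraries (all 3 WT+ZnO NPs-labelled, KO replicate 1 and KO+ZnO NPs replicate 1) and absent, at 0.0452 CPM at most, in the other 7. The methods describe the KO mice as female, and the Y-linked transcripts in 1 KO and 1 KO+ZnO NPs library go against this. The WT libraries and the WT+ZnO NPs-labelled ones therefore differ in sex-linked transcripts as a whole. Application of ZnO NPs, a possible error of label and this difference cannot be told apart in any comparison of these groups.

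Against WT, the WT+ZnO NPs-labelled libraries held less of 5 suprabasal keratins and more of part of the basal ones and of the scarce *Krt2*. *Krt1*, *Krt10*, *Krt77*, *Krt78* and *Krt80* fell, *Krt5*, *Krt15* and *Krt2* rose, and *Krt14* and *Krt79* did not pass the test. Thus 8 of 10 members were called, 5 lower and 3 higher, by the quasi-likelihood test of edgeR at an adjusted p below 0.05 (Benjamini and Hochberg, over 18822 genes), where 43.0% of all genes were called (22.1% lower and 20.8% higher). In 8 of 10 the groups did not overlap, 5 lower and 3 higher, as in 59.4% of all genes (29.3% lower and 30.1% higher). The median log2 fold change was -0.70 over the members and 0.056 over all genes. With the presence of Y-linked transcripts as a covariate, 4 members were called, *Krt10*, *Krt77*, *Krt78* and *Krt80*, all lower, where 20.7% of all genes were called. All WT libraries lack these transcripts and all WT+ZnO NPs-labelled ones hold them. The covariate was therefore estimated within the KO and KO+ZnO NPs groups, from replicate 1 of each. It assumes the same shift in the other groups, which was not tested. Calls kept or lost with it in comparisons with WT or WT+ZnO NPs-labelled libraries, here and below, rest on this assumption.

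In KO skin fewer keratins passed the test. Between the KO+ZnO NPs-labelled libraries and KO, 1 of 10 members was called, *Krt80*, which fell, where 14.7% of all genes were called (8.09% lower). In 3 of 10 the groups did not overlap (34.7% of all genes), *Krt80* lower (17.7%) and *Krt5* and *Krt79* higher (17.0%). Same-numbered libraries deviated together in this comparison, though the labels name no pairing of mice. With the replicate number as a block 3 members were called, *Krt80* lower and *Krt15* and *Krt79* higher, where 13.8% of all genes were called. Replicate 1 of both groups is also the library with Y-linked transcripts, so the block overlaps that difference, and with the Y-linked covariate *Krt80* alone was called (12.8% of all genes). The median log2 fold change was -0.40 over the members and 0.007 over all genes. Of the 10 members, 0 had a called interaction of genotype and ZnO NPs (8.68% of all genes), with 1 at an unadjusted p under 0.05 in edgeR (27.4% of all genes) and 1 called by DESeq2 (17.5%), so that a different response of the keratins in the 2 genotypes was not shown.

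Between KO and WT in vehicle skin no keratin was called, and the values leaned upward. The count was 0 of 10 by edgeR (8.18% of all genes called), with 4 at an unadjusted p under 0.05 (26.1%), 4 called by DESeq2 on all libraries (16.4% of all genes) and 2 by edgeR on these 6 libraries alone (15.9%). In 4 members, *Krt1*, *Krt2*, *Krt5* and *Krt14*, every KO library lay above every WT library, whereas the groups did not overlap in 38.5% of all genes (18.6% with KO higher). The median log2 fold change was 0.69 over the members and 0.010 over all genes. Between the KO+ZnO NPs-labelled and WT+ZnO NPs-labelled libraries, 1 of 10 members was called, *Krt1*, which was higher (3.28% of all genes called, 2.13% higher), and *Krt1*, *Krt10*, *Krt14* and *Krt80* did not overlap, all higher (23.7% of all genes, 13.0% higher). These comparisons share groups (WT, KO or a treated group), so their values are set side by side and are not independent of one another.

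**Figure D1:**
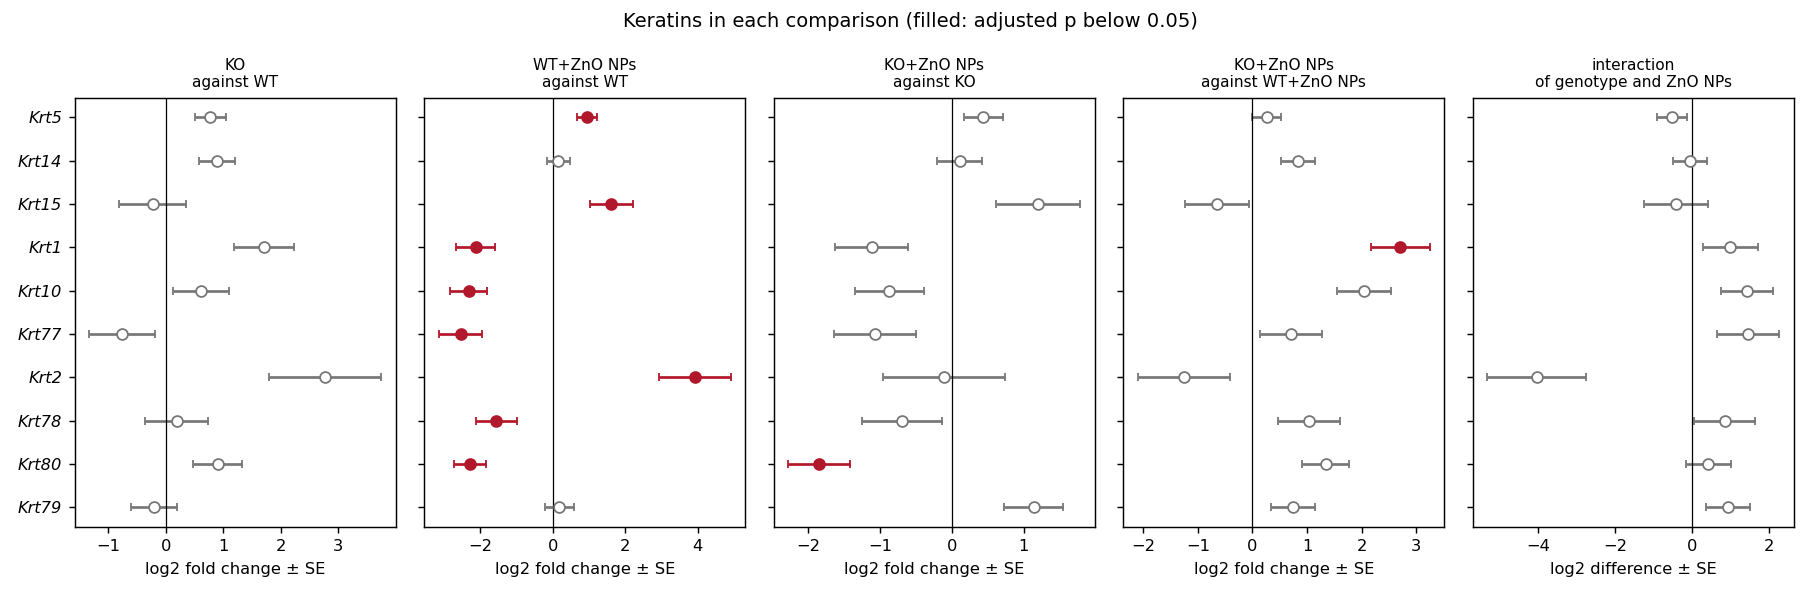
Log2 fold change of each keratin in the 4 comparisons, and the log2 difference of the interaction, with the standard error as bars (edgeR's quasi-likelihood test on 12 libraries; filled red points have an adjusted p below 0.05). The 8 filled points for WT+ZnO NPs against WT stand on both sides of 0, 5 lower and 3 higher, and the other panels hold 2 filled points in all, *Krt80* for KO+ZnO NPs against KO and *Krt1* for KO+ZnO NPs against WT+ZnO NPs.

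Of the basal pair, *Krt5*, the type II keratin of dividing keratinocytes, was measured at 1838, 1390 and 1910 CPM in WT and at 3247, 3421 and 2078 CPM in KO. It was at 4387, 2827 and 2677 CPM in the WT+ZnO NPs-labelled libraries and at 3660, 4515 and 3669 CPM in the KO+ZnO NPs-labelled ones. WT was the lowest group, and all 9 libraries outside WT lay above all WT libraries. *Krt5* rose in the WT+ZnO NPs-labelled libraries against WT, by a log2 fold change of 0.95 (SE 0.28, adjusted p = 0.0182, 1.93-fold). The call was lost without WT replicate 2 (0.81, adjusted p = 0.0790), without replicate 1 of the WT+ZnO NPs-labelled libraries (0.68, adjusted p = 0.0678) and with the Y-linked covariate (0.90, adjusted p = 0.153). Against WT, the KO value was 0.77 (SE 0.27, adjusted p = 0.108 from edgeR and 0.0251 from DESeq2). In the libraries without Y-linked transcripts alone it was 0.68 (SE 0.30, adjusted p = 0.237).

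*Krt14*, the type I partner of *Krt5*, was at 2728, 2314 and 3257 CPM in WT and at 5051, 6395 and 3886 CPM in KO. It was at 4541, 2515 and 2213 CPM in the WT+ZnO NPs-labelled libraries and at 5018, 6100 and 5421 CPM in the KO+ZnO NPs-labelled ones. All 6 KO-labelled libraries lay above all WT libraries, and the WT+ZnO NPs-labelled ones overlapped WT. The log2 fold change was 0.89 between KO and WT (SE 0.31, adjusted p = 0.103 from edgeR and 0.0206 from DESeq2) and 0.16 between the WT+ZnO NPs-labelled libraries and WT (SE 0.31, 95% interval -0.52 to 0.84, adjusted p = 0.696). Between the KO+ZnO NPs-labelled and WT+ZnO NPs-labelled libraries it was 0.84 (SE 0.31, adjusted p = 0.133 from edgeR and 0.0398 from DESeq2). *Krt14* was thus called in none of the comparisons by edgeR on 12 libraries, but edgeR on the KO and WT libraries alone called it (0.90, adjusted p = 0.0443). Its lowest and highest library differed 2.89-fold, the narrowest span of the 10 members.

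*Krt15*, a type I keratin of basal cells and of the follicle bulge, behaved unlike this pair. It was at 380.6, 128.1 and 334.4 CPM in WT, at 462.8, 68.98 and 185.1 CPM in KO, at 1082, 660.2 and 845.6 CPM in the WT+ZnO NPs-labelled libraries and at 556.7, 408.8 and 686.7 CPM in the KO+ZnO NPs-labelled ones. All libraries of both treated groups except KO+ZnO NPs replicate 2 lay above every control library, the exception being below KO replicate 1. *Krt15* rose in the WT+ZnO NPs-labelled libraries against WT by a log2 fold change of 1.62 (SE 0.60, adjusted p = 0.0484, 3.07-fold). This call lies close to the threshold and was made in 10 of 19 alternatives. It was lost without any 1 of the 6 libraries compared, without KO replicate 3 or KO+ZnO NPs replicate 1 (adjusted p = 0.0601 to 0.149), and with the Y-linked covariate (0.57, adjusted p = 0.626). In the KO+ZnO NPs-labelled libraries against KO the value was 1.20 (SE 0.59, adjusted p = 0.183), with the replicate block it was 1.51 (adjusted p = 0.0422), and with the Y-linked covariate 1.51 (adjusted p = 0.0948). Without KO replicate 1 it was 2.12 (adjusted p = 0.0369).

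**Figure D2:**
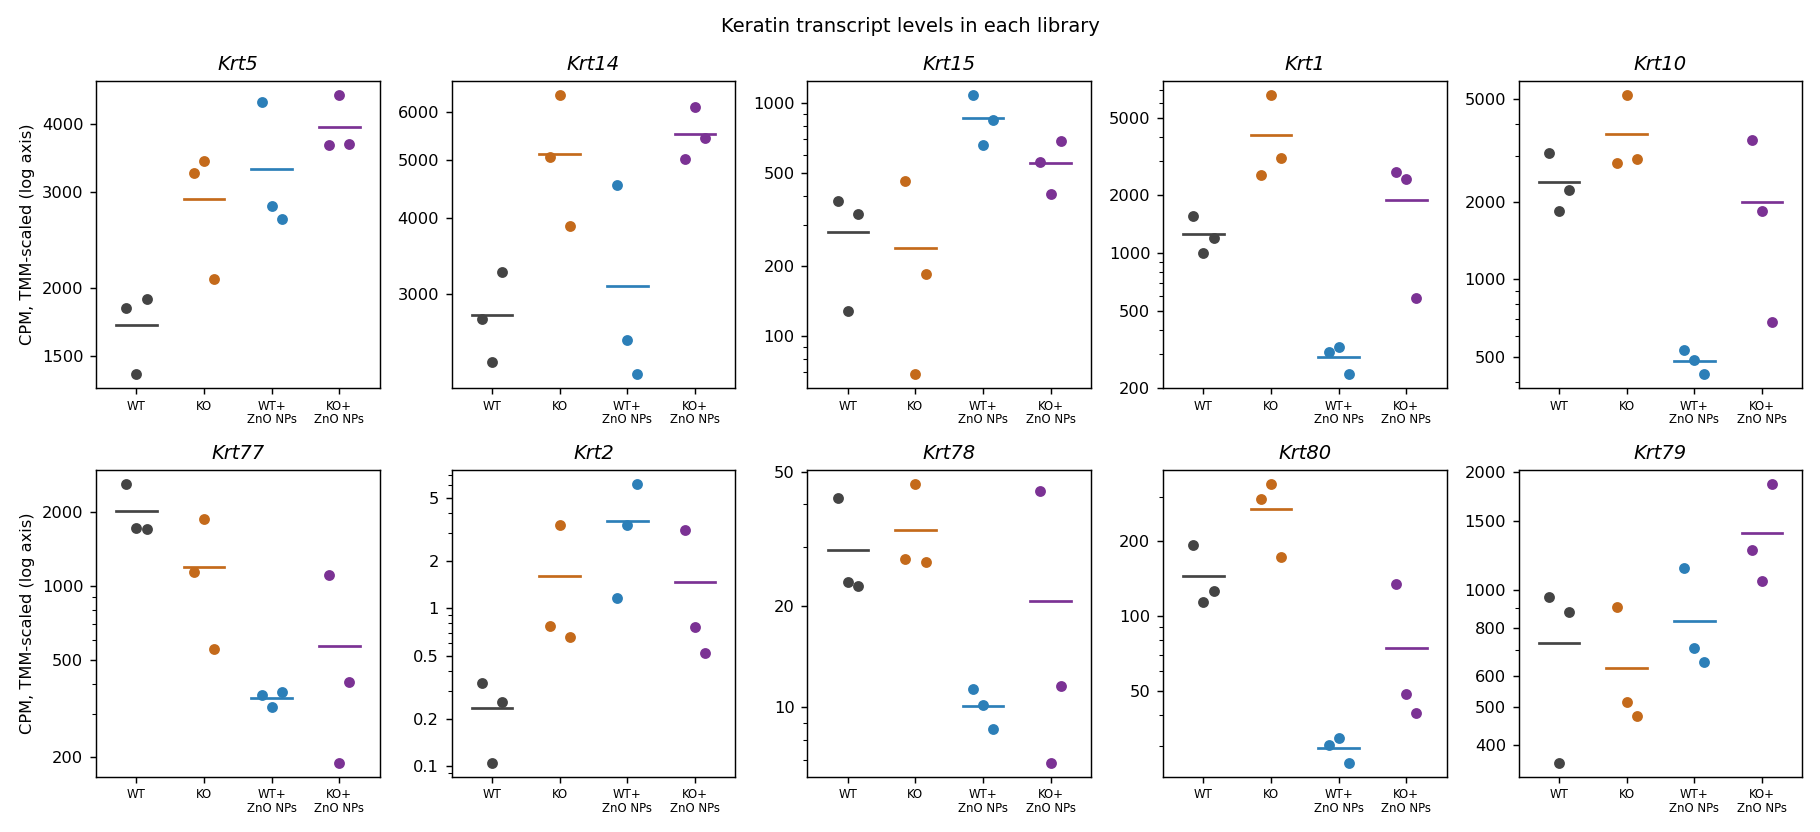
Level of each keratin in each library, as TMM-scaled CPM on a log axis, with points for the 3 libraries of a group (replicates 1, 2 and 3 from left to right) and a bar at their mean. *Krt1*, *Krt10*, *Krt77*, *Krt78* and *Krt80* have their 3 WT+ZnO NPs-labelled libraries below all WT libraries, *Krt5*, *Krt15* and *Krt2* have them above, and the 3 KO+ZnO NPs-labelled libraries are spread widely for the suprabasal keratins.

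*Krt1*, the type II keratin that replaces *Krt5* in the spinous layers, had the second widest span of the members, 28.04-fold over the 12 libraries. It was at 1559, 995.7 and 1199 CPM in WT and at 2528, 6613 and 3124 CPM in KO. It was at 306.1, 323.5 and 235.8 CPM in the WT+ZnO NPs-labelled libraries and at 2639, 2420 and 584.8 CPM in the KO+ZnO NPs-labelled ones. The 3 WT+ZnO NPs-labelled libraries were the lowest of all 12, every KO library lay above every WT library, and KO+ZnO NPs replicate 3 lay well below the other two of its group. *Krt1* fell in the WT+ZnO NPs-labelled libraries against WT with a log2 fold change of -2.12 (SE 0.53, adjusted p = 0.00892, 4.34-fold lower), and was called in 18 of 19 alternatives, the exception being the Y-linked covariate (-2.14, adjusted p = 0.0782). It was higher in the KO+ZnO NPs-labelled libraries than in the WT+ZnO NPs-labelled ones by 2.71 (SE 0.54, adjusted p = 0.0362, 6.52-fold). That call was made in 8 of 20 alternatives and was lost, among others, without any 1 of the WT+ZnO NPs-labelled libraries (adjusted p = 0.0609 to 0.146) or WT (adjusted p = 0.0583 to 0.0630), without KO replicate 3 (adjusted p = 0.0575), without KO+ZnO NPs replicate 1 or 2 (adjusted p = 0.0723 and 0.0681) and on the 6 libraries alone (adjusted p = 0.193) and with the Y-linked covariate (adjusted p = 0.121), with values of 2.38 to 3.20 throughout. Between KO and WT it was 1.71 (SE 0.52, 3.27-fold, adjusted p = 0.0686 from edgeR and 0.00724 from DESeq2), and called by edgeR on these 6 libraries alone (adjusted p = 0.0325 with a value of 1.72) and without KO+ZnO NPs replicate 3 (adjusted p = 0.0165).

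*Krt10*, the type I partner of *Krt1*, was at 3101, 1838 and 2229 CPM in WT and at 2826, 5195 and 2937 CPM in KO. It was at 531.9, 485.8 and 428.5 CPM in the WT+ZnO NPs-labelled libraries and at 3478, 1837 and 682.7 CPM in the KO+ZnO NPs-labelled ones. KO and WT overlapped, and the WT+ZnO NPs-labelled libraries were again the lowest of all 12. *Krt10* fell in them against WT with a log2 fold change of -2.31 (SE 0.50, adjusted p = 0.00436, 4.96-fold lower), a call made in 19 of 19 alternatives, and with the Y-linked covariate the value was -2.90 (adjusted p = 0.0187). Against KO, the KO+ZnO NPs-labelled libraries were at -0.87 (SE 0.48, adjusted p = 0.238). Without KO+ZnO NPs replicate 1 this was -1.54 (adjusted p = 0.0445). Against the WT+ZnO NPs-labelled libraries, they were at 2.05 (SE 0.50, adjusted p = 0.0514 from edgeR and 0.000768 from DESeq2), and without KO+ZnO NPs replicate 3 at 2.45 (adjusted p = 0.0113). These were the calls among 20 alternatives, 2 in all, and the value ran from 1.39 to 2.86 over them.

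*Krt77*, a type II keratin of suprabasal cells, was at 2616, 1722 and 1711 CPM in WT and at 1143, 1880 and 553.2 CPM in KO. It was at 360.9, 320.9 and 367.9 CPM in the WT+ZnO NPs-labelled libraries and at 1113, 190.3 and 404.5 CPM in the KO+ZnO NPs-labelled ones. WT was the highest group, and its 3 libraries were exceeded only by KO replicate 2, which lay above 2 of them. *Krt77* fell in the WT+ZnO NPs-labelled libraries against WT with a log2 fold change of -2.53 (SE 0.60, adjusted p = 0.00680, 5.76-fold lower), the largest fall of a member there, and the call was made in 19 of 19 alternatives. It was the suprabasal keratin whose KO value was below WT, at -0.76 (SE 0.57, 95% interval -2.02 to 0.50, adjusted p = 0.442). In the KO+ZnO NPs-labelled libraries against KO it was -1.07 (SE 0.57, adjusted p = 0.222), and without KO+ZnO NPs replicate 1 it was -2.00 (adjusted p = 0.0285). Between KO replicate 1 and KO+ZnO NPs replicate 1, the pair with Y-linked transcripts and without replicates, it was -0.01.

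*Krt2* is a type II keratin of the upper suprabasal layers, known in the mouse chiefly from ear, tail and sole skin. It was nearly absent from these backs, with 8, 3 and 6 counts in the WT libraries, or 0.336, 0.105 and 0.255 CPM. It was at 0.766, 3.33 and 0.660 CPM in KO, at 1.16, 3.34 and 6.13 CPM in the WT+ZnO NPs-labelled libraries and at 3.14, 0.756 and 0.523 CPM in the KO+ZnO NPs-labelled ones. All 9 libraries outside WT lay above all WT libraries. *Krt2* rose in the WT+ZnO NPs-labelled libraries against WT by a log2 fold change of 3.92 (SE 0.98, adjusted p = 0.00894), but the WT counts are so low that the size of the rise is uncertain. With the Y-linked covariate it was 3.15 (adjusted p = 0.144). Between KO and WT it was 2.77 (SE 0.97, adjusted p = 0.102 from edgeR and 0.0193 from DESeq2), and 1.63 (adjusted p = 0.369) without KO replicate 2, which held 83 counts against 18 and 15 in the other KO libraries. The interaction was -4.03 (SE 1.28, adjusted p = 0.0742 from edgeR and 0.0112 from DESeq2), and -5.23 (adjusted p = 0.0358) without KO+ZnO NPs replicate 1. With the Y-linked covariate it was -3.61 (adjusted p = 0.241). Over 18 alternatives it ran from -5.23 to -2.90 and was called in 2.

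*Krt80*, a type II keratin that appears late in differentiation and lies close to desmosomes, gave a call in both treated groups. It was at 192.2, 114.2 and 125.6 CPM in WT and at 294.8, 339.4 and 172.8 CPM in KO. It was at 30.48, 32.39 and 25.79 CPM in the WT+ZnO NPs-labelled libraries and at 134.2, 48.58 and 40.89 CPM in the KO+ZnO NPs-labelled ones. Each treated group lay below its own control group without overlap. *Krt80* fell in the WT+ZnO NPs-labelled libraries against WT with a log2 fold change of -2.28 (SE 0.44, adjusted p = 0.00218, 4.87-fold lower), in 19 of 19 alternatives, and with the Y-linked covariate the value was -3.23 (adjusted p = 0.00272). It fell in the KO+ZnO NPs-labelled libraries against KO with a log2 fold change of -1.85 (SE 0.43, adjusted p = 0.0212, 3.61-fold lower), and of -1.97 (adjusted p = 0.0121) with the replicate block. This call was lost without KO replicate 2 (-1.63, adjusted p = 0.0815), KO+ZnO NPs replicate 2 (-1.60, adjusted p = 0.0676) or KO+ZnO NPs replicate 3 (-1.53, adjusted p = 0.0517), and on the 6 libraries alone (-1.85, adjusted p = 0.0857). Without the WT+ZnO NPs-labelled libraries it was kept (-1.85, adjusted p = 0.0390). In the libraries without Y-linked transcripts alone it was -2.51 (adjusted p = 0.0135), and between the 1 KO and the 1 KO+ZnO NPs library with them, a pair without replicates, it was -1.11. The 2 falls did not differ detectably, with an interaction of 0.43 (SE 0.59, 95% interval -0.87 to 1.74, adjusted p = 0.678).

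*Krt78*, another type II keratin of differentiating layers, was at 41.76, 23.52 and 22.91 CPM in WT and at 27.60, 46.08 and 26.99 CPM in KO. It was at 11.36, 10.19 and 8.62 CPM in the WT+ZnO NPs-labelled libraries and at 43.76, 6.85 and 11.54 CPM in the KO+ZnO NPs-labelled ones. The KO+ZnO NPs-labelled libraries thus held both the lowest and the second highest value of all 12. *Krt78* fell in the WT+ZnO NPs-labelled libraries against WT with a log2 fold change of -1.55 (SE 0.57, adjusted p = 0.0487, 2.92-fold lower), near the threshold and called in 9 of 19 alternatives. The call was lost without any 1 of the 6 libraries compared or of the KO libraries (adjusted p = 0.0588 to 0.152) and without scaling factors (-1.45, adjusted p = 0.0633), and with the Y-linked covariate it was kept (-2.66, adjusted p = 0.0312). In the KO+ZnO NPs-labelled libraries against KO the value was -0.69 (SE 0.56, adjusted p = 0.415). It was -1.86 (adjusted p = 0.0140) without KO+ZnO NPs replicate 1 and -1.98 (adjusted p = 0.0317) in the libraries without Y-linked transcripts.

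*Krt79*, the type II keratin of the infundibulum, did not move with the suprabasal keratins. It was at 956.3, 361.0 and 877.0 CPM in WT, at 904.1, 514.9 and 476.0 CPM in KO, at 1139, 710.2 and 651.6 CPM in the WT+ZnO NPs-labelled libraries and at 1262, 1055 and 1866 CPM in the KO+ZnO NPs-labelled ones. The KO+ZnO NPs-labelled libraries lay above all KO and all WT libraries, and the remaining pairs of groups overlapped. The log2 fold change between them and KO was 1.14 (SE 0.41, adjusted p = 0.0797), and 1.18 (adjusted p = 0.0462) with the replicate block, where the call is made. The Y-linked covariate gave 1.20 (adjusted p = 0.0801), and DESeq2 gave 1.13 (adjusted p = 0.0242). Between the WT+ZnO NPs-labelled libraries and WT it was 0.19 (SE 0.40, 95% interval -0.70 to 1.07, adjusted p = 0.722).

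To compare keratins with one another, CPM was divided by the summed length of each gene's exons in kilobases. In WT, the order of mean levels per kilobase was *Krt14* (1574), *Krt10* (1130), *Krt5* (779.5), *Krt77* (687.9), *Krt1* (283.4), *Krt15* (159.0), *Krt79* (153.9), *Krt80* (22.5), *Krt78* (8.55) and *Krt2* (0.0888). The ranges of the neighbours *Krt14* and *Krt10*, *Krt5* and *Krt77*, and *Krt15* and *Krt79* overlapped in WT, *Krt10* and *Krt5* met at 869.4, and the other neighbours were apart. *Krt14* was first in all 4 groups and *Krt80*, *Krt78* and *Krt2* were the lowest 3 in all 4. Between these ends the order was rearranged. In KO, *Krt1* (926.0) stood above *Krt77* (406.7), with overlap. In the WT+ZnO NPs-labelled libraries, *Krt15* (488.2) followed *Krt14* and *Krt5*, above *Krt10* (228.0) in every library, and *Krt77* (119.4) and *Krt1* (65.3) came after *Krt79* (175.4). In the KO+ZnO NPs-labelled libraries, *Krt14* (3136) and *Krt5* (1797) stood apart from each other and from all the rest, and *Krt10* (945.7), *Krt1* (426.1), *Krt15* (311.7), *Krt79* (293.4) and *Krt77* (194.2) overlapped from each to the next. The 10 keratins together took 0.877% to 1.34% of the counts of WT libraries, 1.37% to 2.39% in KO, 0.819% to 1.29% in the WT+ZnO NPs-labelled libraries and 1.32% to 1.77% in the KO+ZnO NPs-labelled ones. All 6 KO-labelled libraries except KO+ZnO NPs replicate 3 were thus above all 6 WT-labelled libraries in this share.

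The ratio of a suprabasal to a basal keratin within a library does not depend on the scaling between libraries. The ratio of *Krt10* to *Krt14* per kilobase was 0.945, 0.661 and 0.569 in WT and 0.465, 0.676 and 0.629 in KO. It was 0.0974, 0.161 and 0.161 in the WT+ZnO NPs-labelled libraries and 0.576, 0.250 and 0.105 in the KO+ZnO NPs-labelled ones. The type II counterpart, *Krt1* to *Krt5*, was 0.312 to 0.422 in WT, 0.388 to 0.962 in KO, 0.0347 to 0.0569 in the WT+ZnO NPs-labelled libraries and 0.0793 to 0.359 in the KO+ZnO NPs-labelled ones. By both ratios the WT+ZnO NPs-labelled libraries lay below all control libraries, and the KO+ZnO NPs-labelled ones ran from the level of the controls (replicate 1) to close to the WT+ZnO NPs-labelled libraries (replicate 3).

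Partner keratins were not at a fixed ratio. *Krt14* to *Krt5* was 1.03 to 1.29 in the WT+ZnO NPs-labelled libraries and 1.69 to 2.34 in the other 9. Against WT, *Krt5* was higher in the WT+ZnO NPs-labelled libraries and *Krt14* overlapped. Against KO and KO+ZnO NPs, their mean *Krt14* was lower (3090 CPM against 5111 and 5513 CPM). Their mean *Krt5* (3297 CPM) lay between those of KO (2915 CPM) and KO+ZnO NPs (3948 CPM). *Krt10* to *Krt1* was 3.86 to 4.16 in WT, 3.14 to 3.79 in the WT+ZnO NPs-labelled libraries, 1.64 to 2.33 in KO and 1.59 to 2.75 in the KO+ZnO NPs-labelled ones. All 6 KO-labelled libraries were thus below all 6 WT-labelled ones, although *Cdc42* did not keep the treated groups apart. *Krt77* to *Krt1* divided them likewise, at 0.119 to 1.04 in the KO-labelled and 1.49 to 2.61 in the WT-labelled libraries. Over all 45 pairs of members, 4 ratios (*Krt1* with *Krt10*, *Krt1* with *Krt77*, *Krt10* with *Krt77* and *Krt77* with *Krt80*) had no overlap between the 6 KO-labelled and the 6 WT-labelled libraries. Another 8 ratios had none between the 6 treated and the 6 control libraries, 5 of them with *Krt80* as a partner. No single member separated the libraries in either way. These pairs share members and were picked out from all 45, so their counts are a description.

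**Figure D3:**
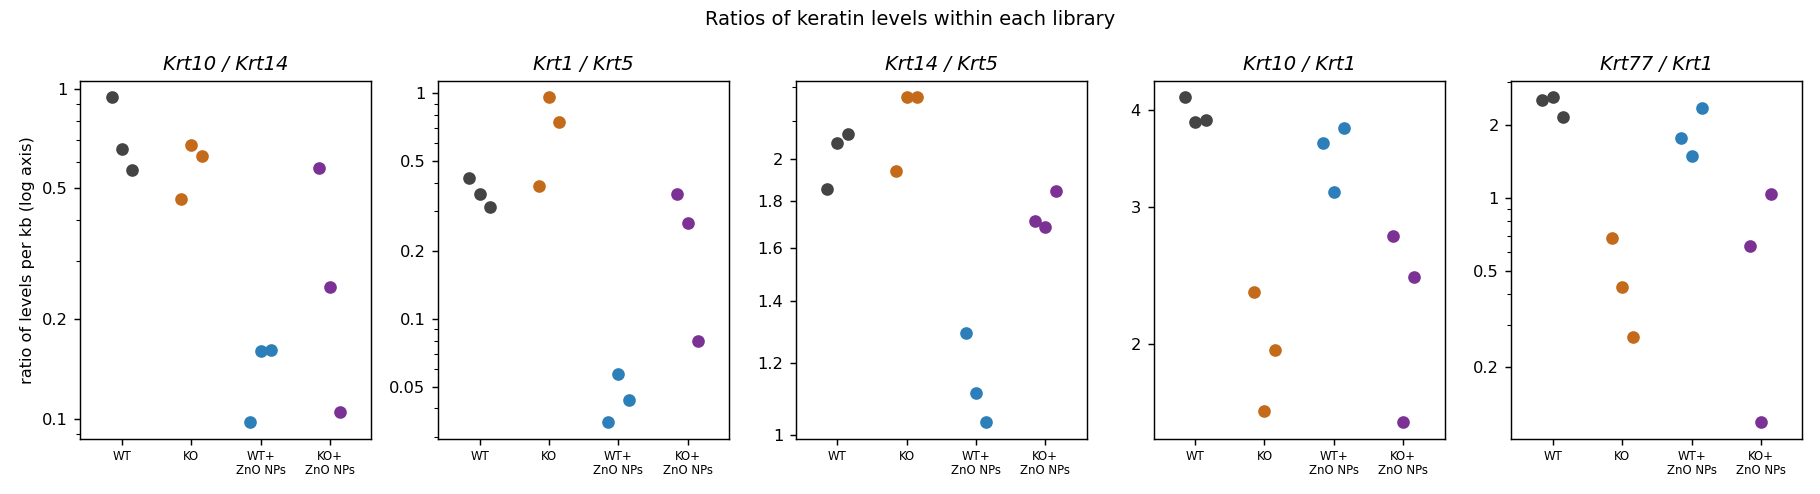
Ratios of keratin levels within each library, as CPM per kilobase of exon on a log axis, with one point for each of the 3 libraries of a group (replicates 1, 2 and 3 from left to right). The ratios *Krt10* / *Krt14* and *Krt1* / *Krt5* are below all controls in the WT+ZnO NPs-labelled libraries and spread from 0.105 to 0.576 and from 0.0793 to 0.359 in the KO+ZnO NPs-labelled ones, *Krt14* / *Krt5* sets the WT+ZnO NPs-labelled libraries (1.03 to 1.29) below all others, and *Krt10* / *Krt1* and *Krt77* / *Krt1* are lower in all 6 KO-labelled libraries than in all 6 WT-labelled ones.

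Across the 12 libraries the suprabasal keratins varied together. Pearson's r of log2(CPM + 1) was 0.95 between *Krt1* and *Krt10*, 0.93 between *Krt10* and *Krt80*, 0.89 between *Krt78* and *Krt80* and 0.88 between *Krt77* and *Krt78*. *Krt1* and *Krt77* were less alike (0.48). *Krt5* and *Krt14* had an r of 0.74. *Krt15* ran against the suprabasal keratins, with an r of -0.72 with *Krt1*, *Krt10* and *Krt80*, and its most similar member was *Krt79* (0.69). *Krt2* had no r above 0.40 with any member. These values describe 12 libraries that fall into 4 groups and share their scaling, and differences between the groups are part of each r.

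**Figure D4:**
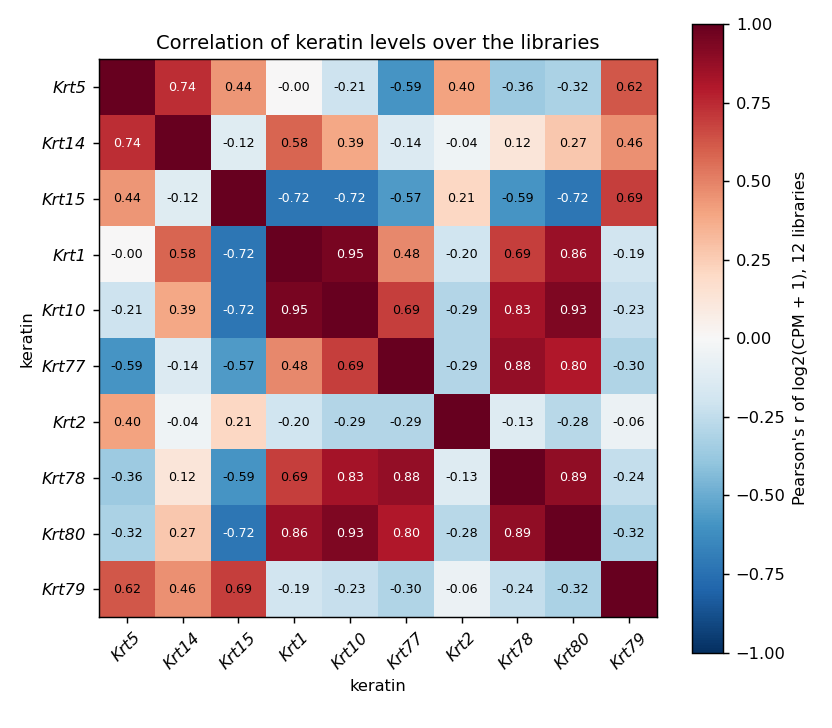
Pearson's r of log2(CPM + 1) between each pair of keratins over the 12 libraries, in red for positive and blue for negative values. *Krt1*, *Krt10*, *Krt77*, *Krt78* and *Krt80* form a block with an r of 0.48 to 0.95, *Krt5* and *Krt14* are paired at 0.74, and *Krt15* is negative with all members of the block.

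By the same measure the most similar genes outside the members were sought among 11268 genes. *Krt10* was closest to *Ggct* (0.993), *Gm11992* (0.984) and *Wfdc5* (0.983), and *Krt1* to *Teddm3* (0.978), *2310046K23Rik* (0.973) and *Them5* (0.971). *Krt80* was closest to *Mpzl3* (0.984), *Spink5* (0.977), which encodes an inhibitor of epidermal serine proteases, and *Slc34a2* (0.971). *Krt77* was closest to *Abhd12b* (0.976), *Zfp800* (0.960) and *Skint10* (0.958), and *Krt78* to *Klk11* (0.977), an epidermal kallikrein protease, *Ceacam19* (0.969) and *Gramd1c* (0.966). The basal keratins had other neighbours. *Krt5* was closest to *Brap* (0.967), *Vps54* (0.966) and *Car12* (0.962), and *Krt14* to *Mxi1* (0.938), *Rgs12* (0.938) and *Lamb3* (0.933), a chain of the laminin that anchors basal cells. *Krt15* was closest to *Col4a6* (0.970) and *Col4a5* (0.955), a pair of basement membrane collagen chains, and to *Elovl3* (0.935), a fatty acid elongase of sebocytes. *Krt79* and *Krt2* had weaker ties, *Krt79* to *Neurl1b* (0.892), *Rhou* (0.882) and *Ackr4* (0.880), and *Krt2* to *Tmem131l* (0.892), *Dcp1a* (0.888) and *Sirt6* (0.879).

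The other genes of the suprabasal program lay with the suprabasal keratins in the WT+ZnO NPs-labelled libraries. Of 18 such genes, 10 fell and 1 rose against WT (22.1% and 20.8% of all genes), with a median log2 fold change of -1.99 (0.056 over all genes). *Sprr1b*, a precursor of the cornified envelope, fell with a log2 fold change of -4.73 (SE 1.06, adjusted p = 0.00501), and *Dsc1*, a desmosomal cadherin of upper layers, fell by 3.19 (SE 0.69, adjusted p = 0.00419). *Tgm3*, a transglutaminase that cross-links the envelope and is also made in hair follicles, rose by 2.33 (SE 0.69, adjusted p = 0.0197). With the Y-linked covariate 10 fell and 0 rose, where 20.7% of all genes were called. Their summed level was 4819 to 7537 CPM in WT, 5794 to 10840 CPM in KO, 1326 to 1890 CPM in the WT+ZnO NPs-labelled libraries and 1827 to 8137 CPM in the KO+ZnO NPs-labelled ones. In KO against WT 0 of 18 were called by edgeR (8.18% of all genes). There were 4 at an unadjusted p under 0.05 (26.1%), 2 by DESeq2 (16.4%) and 2 higher in the libraries without Y-linked transcripts alone (3.74%). In the KO+ZnO NPs-labelled libraries against KO 0 of 18 were called (14.7% of all genes), with 3 at an unadjusted p under 0.05 (32.6%) and 1 by DESeq2 (24.3%). In the libraries without Y-linked transcripts alone, 7 fell (12.8% of all genes called). Against the WT+ZnO NPs-labelled libraries, the KO+ZnO NPs-labelled ones had 1 gene higher (3.28% of all genes called). This was *Krtdap*, a secreted protein of differentiating keratinocytes (2.18, SE 0.38, adjusted p = 0.0292). At an unadjusted p under 0.05, 7 of 18 were higher (24.8% of all genes passed), with 6 by DESeq2 (13.9%) and 0 with the Y-linked covariate.

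Of 12 basal keratinocyte genes, 6 rose and 0 fell in KO against WT, with a median of 0.81, where 8.18% of all genes were called. Among them, *Lama3*, a chain of the basement membrane laminin, rose by a log2 fold change of 2.27 (SE 0.30, adjusted p = 0.00203). The count was 3 in the libraries without Y-linked transcripts alone. In the WT+ZnO NPs-labelled libraries against WT 4 rose and 1 fell, about the share of all genes called there (43.0%). *Cdh3*, the cadherin of basal and hair matrix cells, rose by a log2 fold change of 3.39 (SE 0.28, adjusted p = 2.7e-05), *Trp63*, the transcription factor of basal keratinocytes, rose by 1.62 (SE 0.27, adjusted p = 0.00100), and *Itgb1*, an integrin chain, fell by 1.06 (SE 0.21, adjusted p = 0.00251). The Y-linked covariate left 2 rising, *Cdh3* and *Trp63*, and 0 falling, with *Itgb1* at -0.95 (adjusted p = 0.0558). In the KO+ZnO NPs-labelled libraries against KO 0 of 12 were called (14.7% of all genes), with 4 at an unadjusted p under 0.05 (32.6%) and 1 by DESeq2 (24.3%). The desmosomal and plakin proteins that anchor keratin filaments gave 3 of 8 higher in KO against WT, *Pkp1* (1.23, SE 0.33, adjusted p = 0.0484) and *Dsp* (1.14, SE 0.31, adjusted p = 0.0467) among them, but 0 of 8 in the fits with the Y-linked covariate or without the WT+ZnO NPs-labelled libraries. Of these 8, 1 was higher in the WT+ZnO NPs-labelled libraries than in WT, *Pkp3* (0.95, SE 0.26, adjusted p = 0.0139), and 0 with the covariate.

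Of 17 transcription factors of keratinocyte identity and differentiation, 7 rose and 1 fell in KO against WT (8.18% of all genes called). Without the WT+ZnO NPs-labelled libraries, 4 rose and 1 fell (6.69%). In the WT+ZnO NPs-labelled libraries against WT 10 rose and 2 fell (43.0%), and 1 rose and 2 fell in the KO+ZnO NPs-labelled ones against KO (14.7%). *Tfap2a*, an AP-2 factor, rose by 2.55 in the WT+ZnO NPs-labelled libraries (SE 0.19, adjusted p = 1.7e-05) and by 1.35 in KO (SE 0.18, adjusted p = 0.00234). *Rbpj*, the DNA-binding partner of Notch, fell by 1.86 (SE 0.17, adjusted p = 4.0e-05) in the WT+ZnO NPs-labelled libraries, and *Hes1*, a Notch target, rose by 1.77 (SE 0.19, adjusted p = 8.0e-05). These counts with the Y-linked covariate were 3 rising and 0 falling in KO, and 7 and 2 in the WT+ZnO NPs-labelled libraries, where *Tfap2a*, *Rbpj* and *Hes1* kept their calls. In the libraries without Y-linked transcripts alone, 1 rose and 0 fell in KO against WT, *Tfap2a* (1.19, adjusted p = 0.0328).

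The keratins of other compartments moved as well, and their part in the results above was not tested. The 8 inner root sheath keratins summed to 0.983 to 2.38 CPM in WT, and to 8181, 11.2 and 2401 CPM in KO, 706.3, 2856 and 4427 CPM in the WT+ZnO NPs-labelled libraries and 6037, 4908 and 189.0 CPM in the KO+ZnO NPs-labelled ones. All 8 rose in the WT+ZnO NPs-labelled libraries against WT, and 5 of 8 rose in KO. For this list and the other keratin lists here, 43.0% and 8.18% of all genes were called in these comparisons. In these comparisons 1 of 8 and 4 of 8 rose with the Y-linked covariate, and in the libraries without Y-linked transcripts alone 1 of 8 rose in KO. The 12 hair shaft keratins tested summed to 3.93 to 5.78 CPM in WT, 2.37 to 1780 CPM in KO, 557.1 to 1759 CPM in the WT+ZnO NPs-labelled libraries and 39.4 to 1392 CPM in the KO+ZnO NPs-labelled ones. Of these 12, 8 rose in the WT+ZnO NPs-labelled libraries against WT and 1 in KO, and 1 in each with the Y-linked covariate. In KO, 10 of 12 rose by DESeq2 (16.4% of all genes called) and 10 of 12 at an unadjusted p under 0.05 (26.1%). In the libraries without Y-linked transcripts alone, 0 rose in KO. The keratins of both follicle lists were thus above every WT library in all libraries labelled with ZnO NPs and in KO replicates 1 and 3, with KO+ZnO NPs replicate 3 the lowest of these, and were low in WT and in KO replicate 2, the library with the highest *Krt1*, *Krt10*, *Krt14*, *Krt78* and *Krt80*. Of the 5 injury and companion-layer keratins, 2 rose in KO against WT, *Krt75* (5.01, SE 1.26, adjusted p = 0.0371) and *Krt17* (1.84, SE 0.32, adjusted p = 0.00896), and *Krt17*, *Krt75* and *Krt6b* were called in the WT+ZnO NPs-labelled libraries, with *Krt6b* lower (-5.88, SE 1.38, adjusted p = 0.00643). Only *Krt17* was called with the Y-linked covariate in both comparisons (*Krt6b* at -5.34, adjusted p = 0.0519, in the WT+ZnO NPs-labelled libraries), and in the libraries without Y-linked transcripts alone 0 of 5 were called in KO against WT, with *Krt17* at 1.58 (adjusted p = 0.0697). The injury and companion-layer keratins summed to 949.6 to 1509 CPM in WT and 3530 to 6392 CPM in KO. Of the 5 simple epithelial keratins, 1 was called higher in KO (*Krt7*) and 1 in the WT+ZnO NPs-labelled libraries (*Krt18*, not called with the covariate), and their sum was at most 20.7 CPM.

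**Figure D5:**
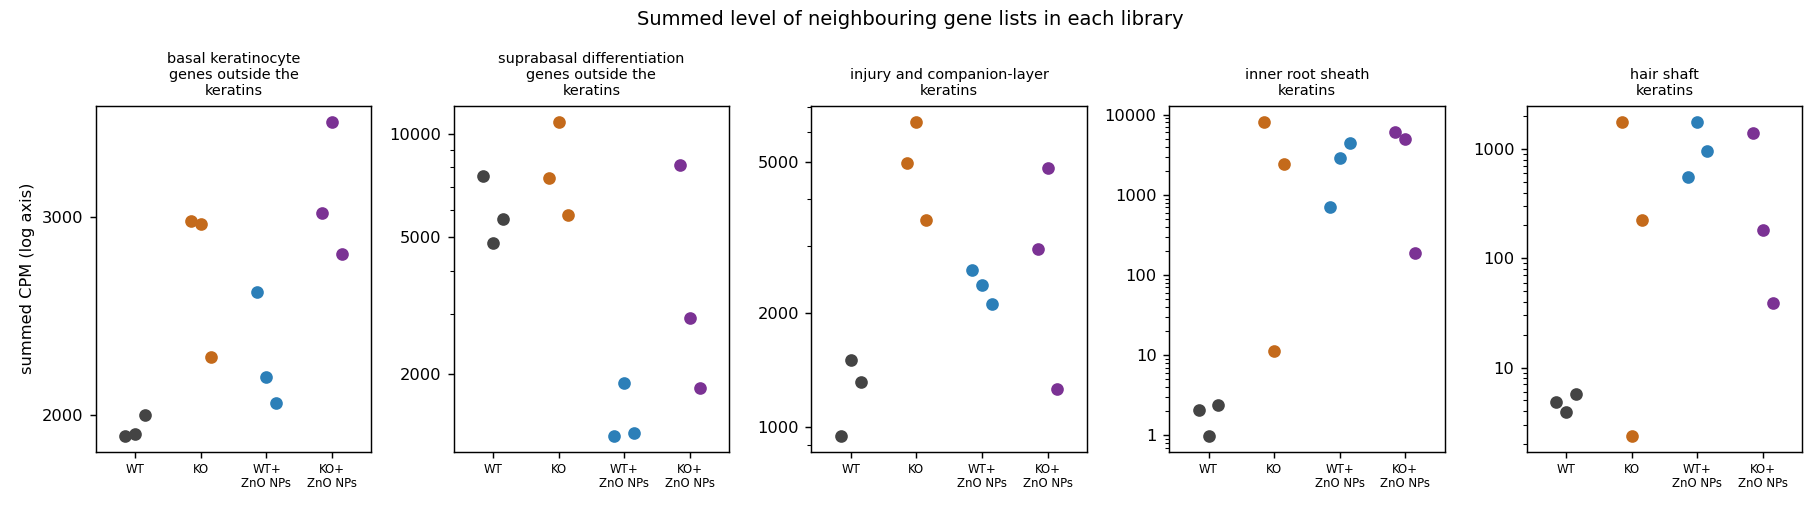
Summed CPM on a log axis of gene lists beside the keratins, with one point for each of the 3 libraries of a group (replicates 1, 2 and 3 from left to right). The suprabasal genes outside the keratins are low in the WT+ZnO NPs-labelled libraries (1326 to 1890 CPM) and in KO+ZnO NPs replicate 3, which lies within their range at 1827 CPM, and the inner root sheath and hair shaft keratins are under 6 CPM in WT and between 2.37 and 8181 CPM elsewhere.

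The markers of other cell types in the skin also differed between the groups, and their part in the keratin values was not tested. Beside the counts below, 43.0% of all genes were called between the WT+ZnO NPs-labelled libraries and WT. The share was 14.7% between the KO+ZnO NPs-labelled libraries and KO, and 8.18% between KO and WT. Immune cell markers summed to 2774 to 3486 CPM in WT, 2252 to 3744 CPM in KO, 356.7 to 729.2 CPM in the WT+ZnO NPs-labelled libraries and 741.6 to 1182 CPM in the KO+ZnO NPs-labelled ones, and fell in 5 of 6 and 6 of 6 genes against their controls. Adipocyte markers summed to 4575 to 6526 CPM in WT and 657.9 to 1452 CPM in the WT+ZnO NPs-labelled libraries, where 4 of 6 fell, and to 1676 to 3286 CPM in KO and 1045 to 4024 CPM in the KO+ZnO NPs-labelled ones. Proliferation genes rose in 6 of 7 and 4 of 7 genes in these comparisons, from 408.3 to 587.8 CPM in WT to 674.3 to 1341 CPM, and from 323.7 to 535.8 CPM in KO to 731.5 to 905.2 CPM. Dermal fibroblast markers summed to 23170 to 37280 CPM in KO, above every WT library (7049 to 13900 CPM), with a median log2 fold change of 1.42 and 0 of 6 called by edgeR (4 at an unadjusted p under 0.05, 3 by DESeq2, 3 by edgeR without the WT+ZnO NPs-labelled libraries), beside the upward values of the keratins in KO. They were at 15750 to 21470 CPM in the KO+ZnO NPs-labelled libraries, where 1 of 6 fell against KO. They had 1 of 6 higher and 2 of 6 lower in the WT+ZnO NPs-labelled libraries against WT (0 and 2 with the Y-linked covariate), with sums of 7678 to 33420 CPM. Skeletal muscle markers reached 18340 CPM in replicate 1 of the WT+ZnO NPs-labelled libraries and 985.3 CPM in KO replicate 2, and 2 of 6 rose in the KO+ZnO NPs-labelled libraries against KO (6 by DESeq2, 0 with the covariate and 6 in the libraries without Y-linked transcripts alone). In KO the muscle sums, 985.3 to 3462 CPM, lay below those of all WT libraries, 4089 to 5779 CPM, and 1 of 6 fell (4 in the libraries without Y-linked transcripts alone and 0 with the Y-linked covariate), beside the upward values of the keratins. Of 5 sebocyte markers, 1 rose in the WT+ZnO NPs-labelled libraries against WT and 3 in the KO+ZnO NPs-labelled ones against KO, *Elovl3* in both (2.30, SE 0.61, adjusted p = 0.0120, and 2.76, SE 0.62, adjusted p = 0.0194). With the covariate the sebocyte counts were 0 and 2, with *Elovl3* at 1.83 (adjusted p = 0.177) and 2.90 (adjusted p = 0.0244). The proliferation genes had 4 of 7 called in each with the covariate, and 1 of 7 in the KO+ZnO NPs-labelled libraries against KO without the libraries that hold Y-linked transcripts.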

How the data were processed

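Skin of 12 mice in 4 groups of 3 was measured by RNA-seq. The counts were deposited by the authors as unnormalized whole-number counts per gene. Per the methods, TRIzol RNA was poly-A selected, made into NEBNext Ultra libraries, sequenced paired-end, aligned with STAR and counted with HTSeq, whereas the labels name a TruSeq kit and the submitters' processing notes name HISAT2 2.0.5 and mm10. Annotation release and strand setting are not given in the sources used here. Reads shared by keratin paralogs may be lost or misplaced in such counts. Of 52636 entries, 52403 matched GENCODE M21 (GRCm38), and 0 named no gene. Groups follow the sample titles, and nothing beyond a number per mouse describes the replicates. Libraries of the same group were further apart than sampling noise allows (chi-square 37.4 to 161.8 per degree of freedom over 12 pairs).

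In R 4.3.3, edgeR 4.0.16 (TMM factors, filterByExpr, quasi-likelihood test, all 12 libraries, one coefficient per group, common dispersion 0.109) tested 18822 genes, with Benjamini-Hochberg adjustment over all of them and a threshold of 0.05. Every adjusted p is from this test unless another fit is named. Standard errors were derived from the F statistic, and the 95% intervals use the t distribution with the 10.8 degrees of freedom of the test. A total count of 21076320 to 28867802 per library leaves counting error small for all keratins but *Krt2*. Same-numbered KO and KO+ZnO NPs libraries deviated together (correlations 0.395, 0.130 and 0.143, all over 0.1), so the replicate block is printed where it changes a call, though the labels do not say what a number stands for. The alternatives tried were DESeq2 1.42.0, RLE factors, library sizes without factors, only the groups compared, no filter, the replicate block, presence of Y-linked transcripts as a covariate, and leaving out each library. Fits restricted by Y-linked transcripts or without the WT+ZnO NPs-labelled libraries were added after seeing the data. On counts simulated for KO against WT (18428 genes, 200 changed 4-fold), edgeR recovered 180 with 9 false calls and DESeq2 173 with 34.

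The keratins were named by symbol, all 10 are reported, and each other list is given by its counts and up to 2 called genes with the largest rise and fall, apart from 1 gene that is not reported here. The 3 most similar genes of a keratin were taken by Pearson's r among genes whose mean reached 10 CPM. The members and lists were chosen with earlier results of these data known. Promoter sequences are from RefSeq on GRCm38.p6.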

Additional observations from a re-analysis of the deposited data

How the results depend on the processing

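Each keratin was refitted in each comparison under the alternatives that allow it. Of 1000 such values, 907 kept their direction and their side of the threshold, 23 passed it anew, 41 no longer passed it and 29 turned sign, and the cause was not tested. Most of the 1000 belong to tests that the main fit did not call, so the 907 say little about how stable the calls are. All 41 losses fall on calls of the main fit, such as *Krt1* between the treated groups, called in 8 of 20 alternatives. In the comparison of the WT+ZnO NPs-labelled libraries with WT, *Krt10*, *Krt77* and *Krt80* were called in 19 of 19 alternatives. DESeq2 on all libraries called 4 keratins between KO and WT, 2 between the KO+ZnO NPs-labelled libraries and KO, 4 between the KO+ZnO NPs-labelled and WT+ZnO NPs-labelled ones and 1 for the interaction, and 3082, 4383, 2451 and 3217 genes in all, against 1540, 2759, 618 and 1633 by edgeR on 12 libraries. The fit on only the groups compared called 2 keratins and 2794 genes between KO and WT, 0 keratins and 571 genes between the KO+ZnO NPs-labelled libraries and KO, and 0 keratins and 0 genes between the KO+ZnO NPs-labelled and WT+ZnO NPs-labelled ones. With the Y-linked covariate the counts were 962 genes between KO and WT, 4 keratins and 3896 genes (against 8085) between the WT+ZnO NPs-labelled libraries and WT, 0 keratins and 1 gene between the KO+ZnO NPs-labelled and WT+ZnO NPs-labelled ones, and 125 genes for the interaction. Without a filter on low counts, 284 genes were called between the treated groups and 1086 for the interaction.

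Chosen after seeing the data, the fit on only the libraries without Y-linked transcripts called 0 keratins and 694 genes (3.74%) between KO and WT and 2 keratins and 2370 genes (12.8%) between the KO+ZnO NPs-labelled libraries and KO, and the fit on only those with them called 0 keratins in both comparisons it allows, with 0 genes between the KO+ZnO NPs-labelled libraries and KO and 3 between the treated groups. In that fit KO and KO+ZnO NPs are 1 library each, assumed to vary like the WT+ZnO NPs-labelled libraries. The fit without the WT+ZnO NPs-labelled libraries, also chosen after seeing the data, kept every count of keratins it gives.

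The 12 fits that leave out 1 library gave 0 to 1 keratins and 377 to 2060 genes between KO and WT, 5 to 8 keratins and 5942 to 9095 genes between the WT+ZnO NPs-labelled libraries and WT, and 0 to 4 keratins and 451 to 3195 genes between the KO+ZnO NPs-labelled ones and KO. It gave 0 to 3 keratins and 1 to 1609 genes between the treated groups, and 0 to 1 keratins and 461 to 1646 genes for the interaction. With the replicate block, 3 keratins were called in place of 1 between the KO+ZnO NPs-labelled libraries and KO, and no other count of called keratins changed. In the other comparisons the correlations of same-numbered deviations were -0.394 to 0.112.

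Of the values that turned sign, those in the fits that leave out 1 library are given as the range over these fits. Between KO and WT, *Krt15* ran from -1.15 to 0.22, *Krt78* from -0.09 to 0.53 and *Krt79* from -0.56 to 0.03. Between the WT+ZnO NPs-labelled libraries and WT, *Krt14* ran from -0.23 to 0.35 and *Krt79* from -0.14 to 0.42. Between the KO+ZnO NPs-labelled libraries and KO, *Krt2* ran from -1.31 to 1.06 and *Krt14* from -0.06 to 0.32. Between the treated groups, *Krt77* ran from -0.23 to 1.11 and *Krt78* from -0.12 to 1.45. For the interaction, *Krt14* ran from -0.24 to 0.34, *Krt15* from -0.88 to 0.50, *Krt78* from -0.31 to 1.25 and *Krt80* from -0.30 to 0.71. With the Y-linked covariate the sign turned for *Krt78* between KO and WT (-0.04), *Krt79* between the WT+ZnO NPs-labelled libraries and WT (-0.17), *Krt15* between the treated groups (0.12) and *Krt15* for the interaction (0.94), and with the replicate block for *Krt14* for the interaction (0.01). In the libraries with Y-linked transcripts alone, where this is the difference of 1 library from 1 other, it turned between KO+ZnO NPs and KO for *Krt1* (0.09), *Krt2* (2.05), *Krt10* (0.32) and *Krt78* (0.69).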
